A study of Mus musculus with 161 samples.

Results

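The 10 genes described here are rows of the deposited expression table that encode brakes on the cell cycle: the cyclin-dependent kinase inhibitors Cdkn1a, Cdkn1b, Cdkn2c and Cdkn2d, the anti-proliferative factors Btg1 and Btg2, the pocket proteins Rb1, Rbl1 and Rbl2, and the unconventional cyclin Ccng2. They were taken by name from the 43280 gene rows of the table, and the rule that lists them uses names only. The names were chosen with earlier results of these data known, so counts of members are not free of selection. All 10 lay above 1 TPM (an abundance per transcript length, scaled to a fixed total per cell) in at least 10% of the cells of some group, as did 14003 genes in all.

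The series recorded mRNA of single untreated C57BL/6 mouse cells captured on Fluidigm C1 microfluidic chips. It holds 66 common monocyte progenitors from bone marrow (cMoP), with the sort gate Lin- CD117+ CD115+ CD135- Ly6C+, 57 bone marrow monocytes (labelled BM, here marrow monocytes) from the same gate without CD117, and 38 blood monocytes sorted as CD115+ CD11b+ with high Ly6C. The labels name no animal, so each population counts as 1 sample. No difference below carries a test, and an SD over cells is the spread between cells only.

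As background, a cell leaves the division cycle when cyclin-dependent kinases no longer phosphorylate the pocket proteins, which then hold E2F transcription factors inactive. INK4 inhibitors such as Cdkn2c (p18) and Cdkn2d (p19) bind Cdk4 and Cdk6, while CIP/KIP inhibitors such as Cdkn1a (p21) and Cdkn1b (p27) act on the wider range of cyclin-kinase complexes. BTG proteins bind the CCR4-NOT complex, which shortens mRNA tails, and restrain proliferation. Monocytes in blood are largely non-dividing descendants of the dividing cMoP.

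The sort markers were checked first. Kit, which encodes CD117, was above 1 TPM in 59.1% of cMoP and in 0 of the marrow and blood monocytes. The other cMoP markers were above 1 TPM in 100% of cMoP but were also found in marrow monocytes. There Prtn3 passed 1 TPM in 28.1% of cells, Elane in 19.3%, Ctsg in 12.3%, Ms4a3 in 7.02% and Mpo in 3.51%. The 6 monocyte markers were above 1 TPM in 69.7% or more of the cells of every group. Of markers of other lineages, Cd79a, Pax5, Cd3e, Cd3g, Trac, Ngp and Retnlg were above 1 TPM in 0 cells of any group, but other genes of the same lists were found. Cxcr2, a neutrophil receptor gene, was above 1 TPM in 72.7% of cMoP, 63.2% of marrow monocytes and 68.4% of blood monocytes, and S100a8 in 21.2%, 17.5% and 2.63%. Ebf1, of the B cell list, was above 1 TPM in 24.2%, 33.3% and 44.7%, Cd3d, of the T and NK cell list, in 22.7%, 22.8% and 26.3%, and Flt3, of the dendritic cell list, in 30.3%, 33.3% and 31.6%, in the same order. The basophil protease gene Mcpt8 was above 1 TPM in 18.2% of cMoP, and the neutrophil collagenase gene Mmp8 in 63.2% of marrow monocytes and 47.4% of blood monocytes. Cd79b, a B cell marker, was above 1 TPM in 65.2% of cMoP, 10.5% of marrow monocytes and 13.2% of blood monocytes. Of the 7 erythroid markers, Hbb-bs was above 1 TPM in 40.9% of cMoP and in 0 of the marrow and blood monocytes. Hba-a1 was above 1 TPM in 19.7%, 1.75% and 2.63% of the groups in that order. Summed TPM of the 7 reached 188 in cMoP, 200 in marrow monocytes and 13.8 in blood monocytes. In marrow monocytes Klf1 alone reached 200 TPM. The part of these markers in the results was not tested.

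Libraries differed in ways that run with the groups. The median number of genes above 1 TPM was 6661.5 in cMoP, 4719 in marrow monocytes and 4319.5 in blood monocytes. The labels place 60 cMoP on lane 2 of one flow cell, give no flow cell for the other 6, and place all 57 marrow and 38 blood monocytes on lane 5 of another. Cell type and flow cell therefore cannot be told apart between cMoP and monocytes, whereas marrow and blood monocytes shared a lane. Mitochondrial rows took 16.6 to 47.7% of TPM in 11 cMoP libraries and no more than 11.1% in the remaining cMoP, and 1 blood library had only 0.954% of TPM on ribosomal protein rows. In the blood group, 3 libraries lay under 10 TPM of Ly6c2. Leaving out any of these sets changed the sign of 1 member difference, that of Cdkn2d between marrow monocytes and cMoP, and moved the members by up to 0.45 on the log2 scale. It also took Cdkn2c, between blood monocytes and cMoP, to a difference of -1.03 without the high-mitochondrial cMoP, against -0.91 with them.

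Between marrow monocytes and cMoP, 3 of the 10 genes were higher by at least 1 in mean log2(TPM + 1) and 1 was lower by at least 1. Among all 14003 measured genes, 3.94% were higher and 30.8% lower by that much, and 26.4% had a difference above 0. The median difference was 0.31 over the members and -0.45 over all measured genes. Between blood and marrow monocytes, 0 members were higher and 2 were lower by at least 1, against 1.96% and 9.66% of all genes, with medians of -0.44 and -0.10. Between blood monocytes and cMoP, 5 members were higher and 3 lower, against 4.28% and 37.7% of all genes, with medians of 0.18 and -0.58. The genes thus split: Btg1, Btg2 and Cdkn1a stood far above the median gene in monocytes, Cdkn1b and Rb1 moderately above it, and Rbl1 below it. Cdkn2d and Rbl2 were also lower by at least 1 between blood monocytes and cMoP, at -1.49 and -1.13.

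**Figure D1:**
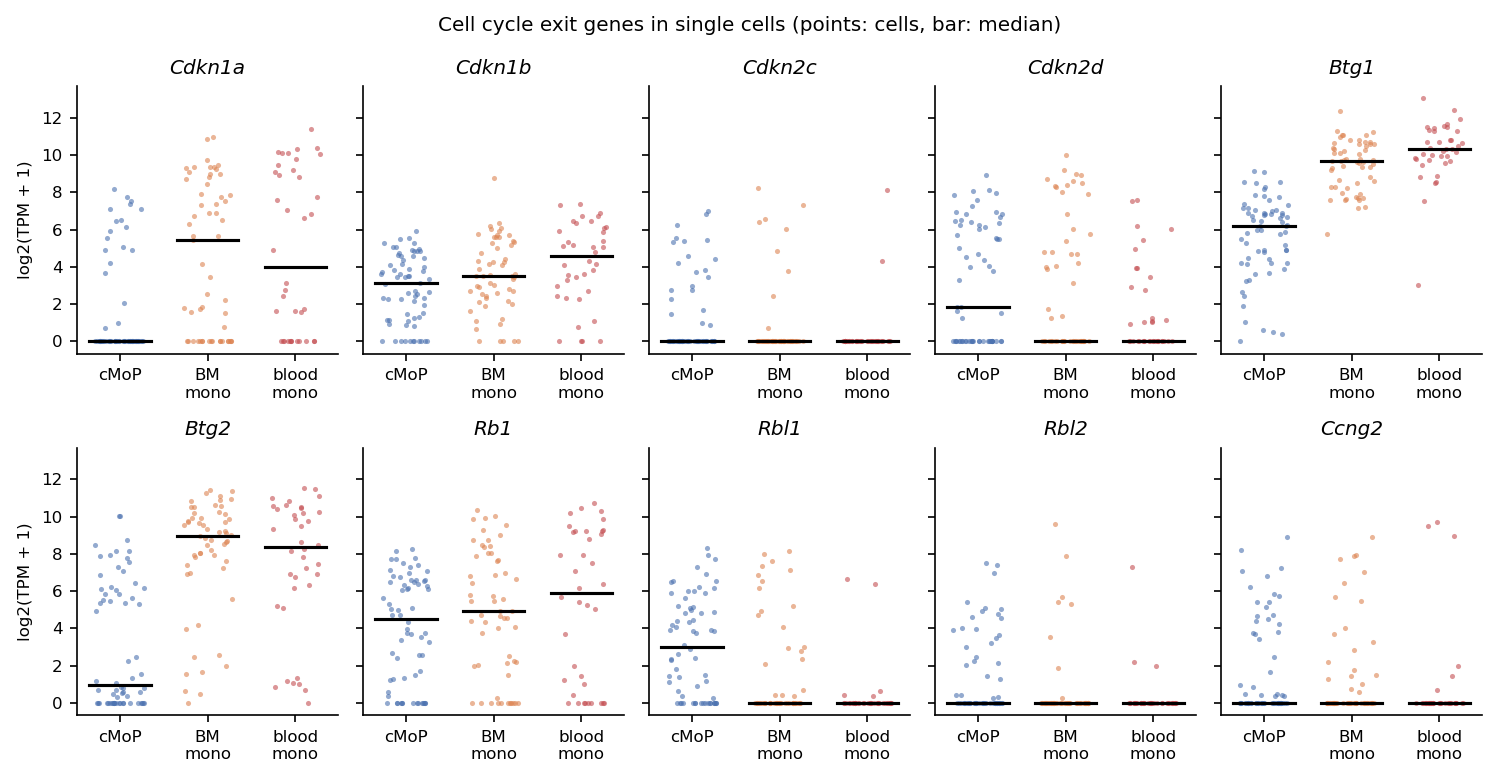
Level of each gene in every cell, as log2(TPM + 1), with 1 point per cell for 66 cMoP, 57 marrow monocytes and 38 blood monocytes and a bar at the group median. Btg1 is detected in nearly every cell and sits higher in both monocyte groups, while Cdkn2c, Rbl2 and Ccng2 have medians of 0 in all 3 groups.

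The BTG pair had the highest levels of the 10 genes in both monocyte groups. Btg1 was at 0, 72.8 and 557 TPM in cMoP (lowest, median and highest cell), at 53.8, 823 and 5378 TPM in marrow monocytes, and at 7.25, 1289 and 8513 TPM in blood monocytes. The groups overlapped little at their centres: 56 of 57 marrow monocytes lay above the cMoP median, 38 lay above the highest cMoP, and 0 of 66 cMoP reached the marrow monocyte median. In mean log2(TPM + 1), Btg1 was 9.46 ± 1.35 in marrow monocytes and 5.61 ± 2.20 in cMoP (SD over cells), a difference of 3.85 that ranked 58 from the top of 14003 genes. Blood monocytes, at 10.21 ± 1.64, were higher by a further 0.75 than marrow monocytes, and 32 of 38 exceeded the highest cMoP.

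Btg2, which is also known as an immediate early gene and a p53 target, differed in how many cells held its transcript and in its level there. Cells above 1 TPM were 33 of 66 cMoP (95% interval 37.4 to 62.6%), 94.7% of marrow monocytes (85.4 to 98.9%) and 89.5% of blood monocytes (75.2 to 97.1%). Among cells above 1 TPM its median was 543 TPM in marrow monocytes and 69.1 TPM in cMoP. Over all cells its lowest, median and highest values were 0, 0.955 and 1045 TPM in cMoP, 0, 491 and 2746 TPM in marrow monocytes, and 0, 330 and 3010 TPM in blood monocytes. The ranges overlapped, yet 54 of 57 marrow monocytes lay above the cMoP median and 2 of 66 cMoP lay above the marrow monocyte median. The difference between marrow monocytes and cMoP was 4.90 in mean log2(TPM + 1), rank 29 from the top, and Btg2 stood 8.68-fold higher in mean TPM. Between blood and marrow monocytes the difference was -0.52, and it was -0.10 without the 3 blood libraries under 10 TPM of Ly6c2.

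Only 4 cells, all cMoP, lacked Btg1 above 1 TPM, and Btg2 was not above 1 TPM in them either. The counts could therefore hardly show Btg2 without Btg1. Both were above 1 TPM in 33 of 66 cMoP, 54 of 57 marrow monocytes and 34 of 38 blood monocytes. Btg1 made up 56%, 58.5% and 70.4% of the pair's summed mean TPM in cMoP, marrow monocytes and blood monocytes. As a mean of each cell's own share the order of the groups differed, at 75.7%, 61.2% and 71.6%. The sum was 189 TPM in cMoP, 1740 TPM in marrow monocytes and 2514 TPM in blood monocytes. The related Tob1 and Tob2 did not share the difference between marrow monocytes and cMoP, at 0.08 and -0.60, although Tob2 was higher by 1.16 in blood than in marrow monocytes. BTG proteins bind the CCR4-NOT complex. Of its 11 genes, 0 were higher and 9 lower by at least 1 in marrow monocytes than in cMoP, at a median of -1.29. Over all measured genes 30.8% were lower by that much, at a median of -0.45. By mean TPM the CCR4-NOT list was split. Cnot6l was at 95.1 TPM in marrow monocytes and 51.8 TPM in cMoP, while Rqcd1, the lowest at -4.11, was at 108 and 275 TPM.

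The promoters of Btg1 and Btg2 are shown because of their levels, the highest of the 10 in monocytes. They also had the largest differences from cMoP of the 10 in mean log2(TPM + 1). By fold of mean TPM over cMoP, Cdkn1a exceeded Btg2, at 9.60 against 8.68 in marrow monocytes and 15.5 against 8.94 in blood monocytes. Each window runs from 250 bases before to 50 bases after the transcript start in RefSeq on GRCm38.p6, 5′ to 3′ on the gene's own strand. Btg1 lies at chr10:96616751-96617050 on the plus strand and Btg2 at chr1:134079106-134079405 on the minus strand.
Btg1: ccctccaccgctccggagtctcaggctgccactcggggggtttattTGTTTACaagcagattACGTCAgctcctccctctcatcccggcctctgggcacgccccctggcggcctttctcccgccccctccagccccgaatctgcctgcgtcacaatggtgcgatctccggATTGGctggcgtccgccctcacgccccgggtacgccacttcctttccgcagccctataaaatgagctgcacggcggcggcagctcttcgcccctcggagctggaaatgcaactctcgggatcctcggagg
Btg2: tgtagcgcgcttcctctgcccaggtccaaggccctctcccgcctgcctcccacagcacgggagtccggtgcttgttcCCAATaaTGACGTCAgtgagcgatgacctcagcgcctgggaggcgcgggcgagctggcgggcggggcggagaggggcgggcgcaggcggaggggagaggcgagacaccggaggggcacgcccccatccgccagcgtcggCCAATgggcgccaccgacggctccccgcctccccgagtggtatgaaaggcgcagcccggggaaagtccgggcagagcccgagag
Capitals mark matches on either strand to the cAMP response element core TGACGT, the forkhead core GTAAACA and the CCAAT box. A match to TGACGT was present in both windows and in 7.51% of all 32851 promoter windows of this length, and among the 9 members with a window only in Btg1 and Btg2. In Btg2 it occurs on both strands at overlapping positions. GTAAACA was matched in Btg1 alone of the members and in 3.65% of all windows, and CCAAT in 5 members and 37.4% of all windows. A match is a match of letters, and binding was not measured.

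Cdkn1a, the p53-responsive inhibitor p21, was the other gene that stood far apart. It was above 1 TPM in 25.8% of cMoP (15.8 to 38%), 66.7% of marrow monocytes (52.9 to 78.6%) and 68.4% of blood monocytes (51.3 to 82.5%). The median and highest values were 0 and 286 TPM in cMoP, 42.5 and 1970 TPM in marrow monocytes, and 18.5 and 2725 TPM in blood monocytes, with a lowest value of 0 in each. The groups overlapped at the low end, and 15 of 57 marrow monocytes lay above the highest cMoP. Mean log2(TPM + 1) was 4.53 ± 3.96 in marrow monocytes and 1.55 ± 2.71 in cMoP, a difference of 2.98 that ranked 105 from the top. Blood monocytes differed from marrow monocytes by 0.30, and by 1.97 among cells with 4500 to 6000 genes above 1 TPM (14 blood and 33 marrow monocytes).

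Cdkn1b, the inhibitor p27, was detected widely at a low level and differed less. Its median and highest values were 7.64 and 60.8 TPM in cMoP, 10.4 and 443 TPM in marrow monocytes, and 23.1 and 166 TPM in blood monocytes. The gene passed 1 TPM in 78.8% of cMoP, 87.7% of marrow monocytes and 86.8% of blood monocytes. At that threshold the share of cells hardly separated the groups. Above 10 TPM the shares were 43.9%, 54.4% and 68.4% in the same order. The differences in mean log2(TPM + 1) were 0.73 for marrow monocytes against cMoP, 0.65 for blood against marrow monocytes and 1.38 for blood monocytes against cMoP. Among cells with 4500 to 6000 genes above 1 TPM the first was 0.20 and the second 1.34, and all 3 were above 0 in every setting tried.

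Within the CIP/KIP pair, the gene that led differed between cells. Cdkn1a held 66.1% of the pair's summed mean TPM in cMoP, 89.4% in marrow monocytes and 90.3% in blood monocytes. Counted by cell, Cdkn1b was the more abundant of the pair in 40 of 55 cMoP with either gene, against 25 of 56 marrow monocytes and 15 of 36 blood monocytes. As a mean of each cell's own share, Cdkn1a held 24.7% in cMoP, 53.6% in marrow monocytes and 54.9% in blood monocytes, so the shares of the sums rested on cells with much Cdkn1a in every group. All 6 genes that act in p27 degradation were lower by at least 1 in marrow monocytes than in cMoP, against 30.8% of all measured genes, at a median of -2.19. Among them were Cks1b at -4.81, Cul1 at -2.67 and Skp2, the F-box protein that recognises p27, at -2.50. By mean TPM Rnf123 of this list was instead higher in marrow monocytes than in cMoP, at 64.6 against 57.5 TPM. The others were lower, Cul1 only at 105 against 119 TPM. Of 12 measured p53 pathway genes, 0 were higher and 4 lower by at least 1 in marrow monocytes, a share near the 30.8% of all measured genes, with a median of -0.04. Trp53 was at -4.02, and Mdm2, a p53 target and its inhibitor, was higher by 1.2 in blood than in marrow monocytes.

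**Figure D2:**
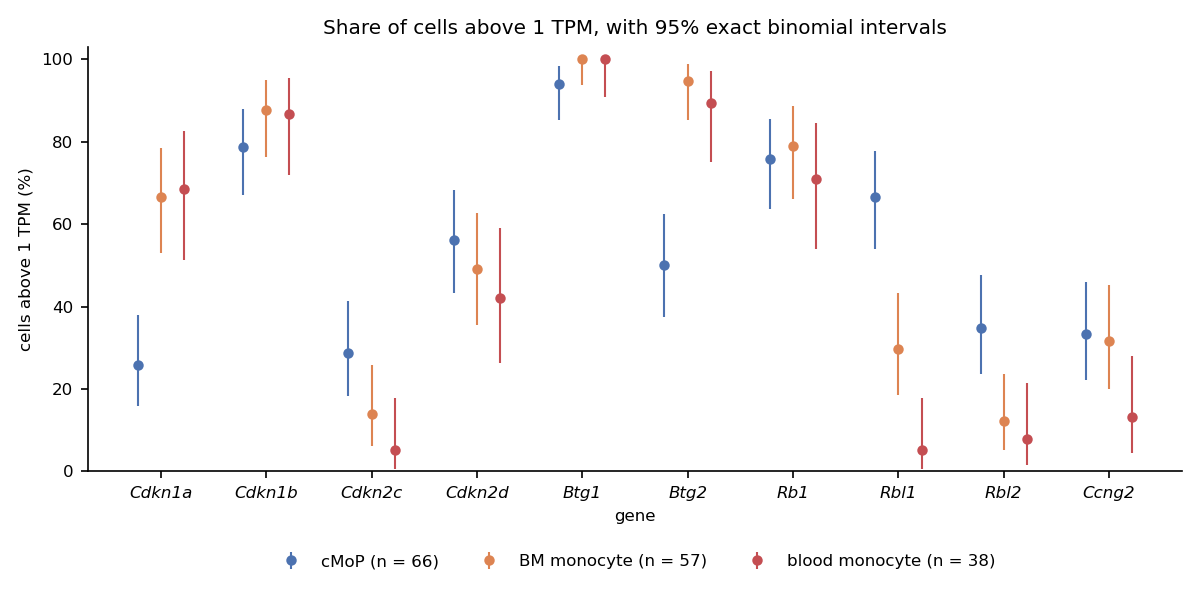
Percentage of cells above 1 TPM for each gene in cMoP, marrow monocytes and blood monocytes, with 95% exact binomial intervals that cover the counting of cells only. The intervals of cMoP and marrow monocytes do not overlap for Cdkn1a, Btg2 and Rbl1.

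The INK4 inhibitors followed another order. Cdkn2d was above 1 TPM in 56.1% of cMoP, 49.1% of marrow monocytes and 42.1% of blood monocytes, with highest values of 490, 1033 and 191 TPM in that order. Mean log2(TPM + 1) was 2.99 ± 3.56 in marrow monocytes and 3.10 ± 3.15 in cMoP, a difference of -0.11, and it differed by -1.38 between blood and marrow monocytes. All groups overlapped over most of their range. Among cells with 4500 to 6000 genes above 1 TPM (33 marrow monocytes and 17 cMoP), Cdkn2d was instead higher in marrow monocytes, by 2.42. Over all cells its mean TPM was also higher there, at 99.9 against 51.5 TPM in cMoP. The sign differed from the reported one in 6 of 9 other settings. Its order between those groups thus depends on the cells set side by side and on the measure.

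Cdkn2c was sparse. It was above 1 TPM in 28.8% of cMoP, 14% of marrow monocytes and 5.26% of blood monocytes, or 2 blood cells, and its highest values were 128, 302 and 280 TPM in that order. The differences in mean log2(TPM + 1) were -0.42 for marrow monocytes against cMoP and -0.49 for blood against marrow monocytes, and cells at 0 made up most of every group. The first turned to 0.55 among cells with 4500 to 6000 genes, and mean TPM was 13.2 in marrow monocytes and 9.20 in cMoP, a log2 ratio of 0.48. Of the 19 cMoP above 1 TPM for Cdkn2c, 17 were also above 1 TPM for Cdkn2d, while 20 cMoP held Cdkn2d alone. Over the 66 cMoP, log2 levels of the pair had Pearson's r of 0.49 and Spearman's rho of 0.50, as a description over cells that share a preparation and differ in complexity. Of 4 other inhibitor genes looked up, 1 was measured, Cdkn3, which encodes a phosphatase, at -1.99 between marrow monocytes and cMoP.

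The INK4 genes were set beside the transcripts of the G2 and M phase. Over cMoP, Cdkn2d had r = 0.60 and rho = 0.56 with the mean log2(TPM + 1) of 25 G2 and M phase genes, and r = 0.57 without the 2 most distant cells. Given the number of genes per cell, r was 0.54. Over marrow monocytes r was 0.41 for Cdkn2d and 0.44 for Cdkn2c, and 0.24 and 0.29 given the number of genes per cell. Over blood monocytes r was 0.15 and 0.14. The genes most like Cdkn2d over all cells, after removal of group means, were Ccnf, Ska2 and Kif4, with r of 0.43 for each, out of 6688 candidates. Ska2 was also the gene most like Cdkn2c, at 0.46.

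**Figure D3:**
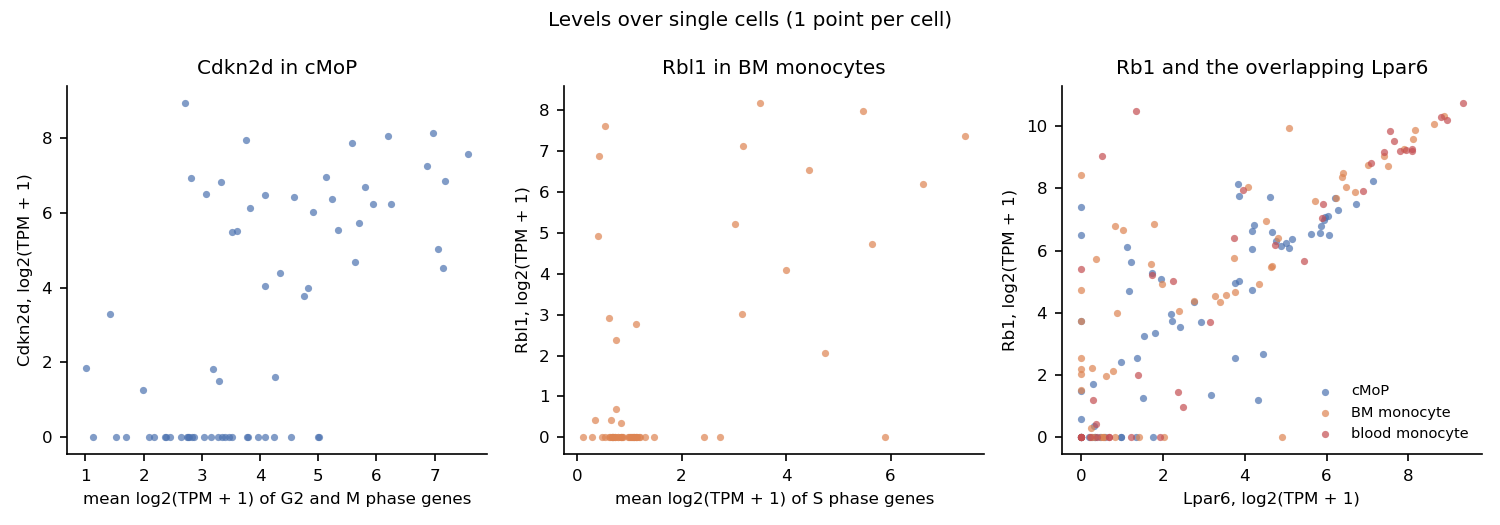
Log2(TPM + 1) in single cells, 1 point per cell: Cdkn2d against the mean of 25 G2 and M phase genes in 66 cMoP, Rbl1 against the mean of 25 S phase genes in 57 marrow monocytes, and Rb1 against the overlapping gene Lpar6 in the cells of all 3 groups. Points in the last panel follow a band in each group, with r between 0.75 and 0.82.

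The pocket proteins differed in their make-up between the groups. Rb1 held 56% of the family's summed mean TPM in cMoP, 79.6% in marrow monocytes and 97.3% in blood monocytes. Rbl1 (p107) held 32.5%, 11.3% and 1.42%, and Rbl2 (p130) held 11.6%, 9.07% and 1.30%, in the same order. Rb1 was the most abundant of the family in 41 of 62 cMoP, 39 of 50 marrow monocytes and 27 of 29 blood monocytes with any pocket protein above 1 TPM. The family sum was 102 TPM in cMoP, 225 TPM in marrow monocytes and 334 TPM in blood monocytes.

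Rbl1, a pocket protein gene known to be transcribed in cycling cells, was lower at each step. It was above 1 TPM in 66.7% of cMoP (54 to 77.8%), 29.8% of marrow monocytes (18.4 to 43.4%) and 5.26% of blood monocytes (0.644 to 17.7%). The median and highest values were 7.07 and 322 TPM in cMoP, 0 and 288 TPM in marrow monocytes, and 0 and 98.4 TPM in blood monocytes. In marrow monocytes 12 of 57 cells lay above the cMoP median, and in blood 2 of 38 did. The differences in mean log2(TPM + 1) were -1.44 for marrow monocytes against cMoP, -1.23 for blood against marrow monocytes and -2.68 for blood monocytes against cMoP. Each was below 0 in every setting tried, but the first was only -0.10 among cells with 4500 to 6000 genes.

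Windows of Rbl1, at chr2:157204485-157204784, and Cdkn2c, at chr4:109666707-109667006, are shown on the same build and orientation as the BTG pair. Both lie on the minus strand. Rbl1 is shown as the member that was lower in both monocyte groups in every setting. Cdkn2c is shown as the only member with a match to the letters TTCCCGC. No other form of the E2F core was searched.
Rbl1: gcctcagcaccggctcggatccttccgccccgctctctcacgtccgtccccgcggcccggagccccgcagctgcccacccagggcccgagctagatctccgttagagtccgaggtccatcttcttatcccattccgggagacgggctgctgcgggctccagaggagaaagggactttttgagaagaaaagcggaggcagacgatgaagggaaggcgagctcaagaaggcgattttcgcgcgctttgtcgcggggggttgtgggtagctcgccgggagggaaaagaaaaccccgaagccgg
Cdkn2c: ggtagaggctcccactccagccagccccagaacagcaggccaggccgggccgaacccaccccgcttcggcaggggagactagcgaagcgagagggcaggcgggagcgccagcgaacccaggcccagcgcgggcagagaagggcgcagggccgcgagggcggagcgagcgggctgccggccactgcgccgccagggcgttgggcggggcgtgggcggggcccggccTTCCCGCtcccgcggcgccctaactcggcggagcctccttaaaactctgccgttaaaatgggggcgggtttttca
Capitals mark matches to the same motifs and to the E2F core TTCCCGC, which 4.60% of all windows hold on either strand. Its other window, from a second start, holds CCAAT. The Rbl1 window held none of the 4 sets of letters, which says nothing of other sequences there, other forms of the E2F core included.

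Over the 57 marrow monocytes, Rbl1 had r = 0.60 with the mean level of 25 S phase genes and r = 0.50 with that of G2 and M phase genes. The rank correlations were lower, at 0.28 and 0.40, and 36 of 57 cells were at 0. The genes most like Rbl1 over all cells after removal of group means were Tipin, Top2a and Wdhd1, with r between 0.41 and 0.43. Btg1 ran the other way over marrow monocytes, with r = -0.41 against S phase and -0.42 against G2 and M phase genes, and also r = -0.39 against the number of genes per cell. Given that number, the first 2 values were -0.23 and -0.25.

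Rb1, the retinoblastoma gene, was found in similar shares of cells, 75.8% of cMoP, 78.9% of marrow monocytes and 71.1% of blood monocytes, but reached higher values in monocytes. Its median and highest values were 22.2 and 303 TPM in cMoP, 29.3 and 1297 TPM in marrow monocytes, and 60.4 and 1725 TPM in blood monocytes. Among cells above 1 TPM the median was 66.3 TPM in cMoP, 53.7 TPM in marrow monocytes and 248 TPM in blood monocytes. Every group also held cells at 0, and 12 of 57 marrow monocytes lay above the highest cMoP. Mean TPM was 3.15-fold higher in marrow monocytes than in cMoP, and the differences in mean log2(TPM + 1) were 0.86 there and 0.41 for blood against marrow monocytes. The second was -0.11 among cells with 4500 to 6000 genes.

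Reads of Rb1 may not be separable from those of a neighbour. Rb1 lies on the minus strand of chromosome 14 (73183673 to 73325822, GRCm38) and shares 408 of its 6015 exon bases with Lpar6, a receptor gene on the plus strand inside it, and 488 with Rcbtb2. The Nextera XT kit named in the labels does not mark strand, so reads from shared bases cannot be told apart. Lpar6 was the gene most like Rb1, at r = 0.78 after removal of group means, while the next gene reached 0.30. Within groups r was 0.75 in cMoP, 0.78 in marrow monocytes and 0.82 in blood monocytes, and the median ratio of Rb1 to Lpar6 TPM was 2.36, 2.88 and 2.72 in cells with over 10 TPM of both. Rb1 was above 1 TPM without Lpar6 in 6 cMoP, 13 marrow monocytes and 3 blood monocytes. With Rcbtb2, r was 0.25, 0.21 and 0.35.

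Rbl2, the pocket protein usually tied to resting cells, was not higher in monocytes in the share of cells. Cells above 1 TPM made up 34.8% of cMoP (23.5 to 47.6%), 12.3% of marrow monocytes (5.08 to 23.7%) and 7.89% of blood monocytes (1.66 to 21.4%). The highest values were 182 TPM in cMoP, 787 TPM in marrow monocytes and 158 TPM in blood monocytes, and the median was 0 in each group. The difference between marrow monocytes and cMoP was -0.74 in mean log2(TPM + 1) but the log2 ratio of the groups' mean TPM was 0.75, and 1 marrow monocyte held 67.4% of that group's sum. Rbl2 shares 693 exon bases with Aktip and 892 with Gm45464, both on the other strand. Cdkn1a likewise shares 273 of its 3553 exon bases with AC167363.2 on the other strand. Neither Gm45464 nor AC167363.2 has a row of its own among the deposited values.

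Gene lists around the pocket proteins, not all of direct partners, were also counted between marrow monocytes and cMoP. There 30.8% of all measured genes were lower by at least 1, at a median of -0.45. Of 10 E2F and DP genes 0 were higher and 4 lower by at least 1, a share near that of all genes, at a median of -0.67, with Tfdp1 at -4.47, E2f4 at -2.41 and E2f1 at -1.41. Of 6 genes listed for the DREAM and MuvB complexes, 5 were lower by at least 1, at a median of -1.86. Among them were the histone-binding Rbbp4 at -3.16 and Mybl2 at -2.86. Of 8 G1 cyclins and kinases 6 were lower by at least 1 at a median of -3.17, among them the INK4 targets Cdk6 at -6.09 and Cdk4 at -5.22, and Ccnd2 at -4.34. All 25 S phase genes were lower by at least 1, at a median of -4.71, and 22 of 25 G2 and M phase genes, at -2.14. By mean TPM the S phase genes were lower too, but the G2 and M phase list was split. Ccnb2 was at 162 TPM in marrow monocytes and 118 TPM in cMoP, while Cdk1 was at 148 and 252 TPM. Lin37 of the DREAM list was at 55.8 and 50.2 TPM. The highest single-cell mean log2(TPM + 1) of the G2 and M phase list was 7.94 in marrow monocytes and 7.57 in cMoP.

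**Figure D4:**
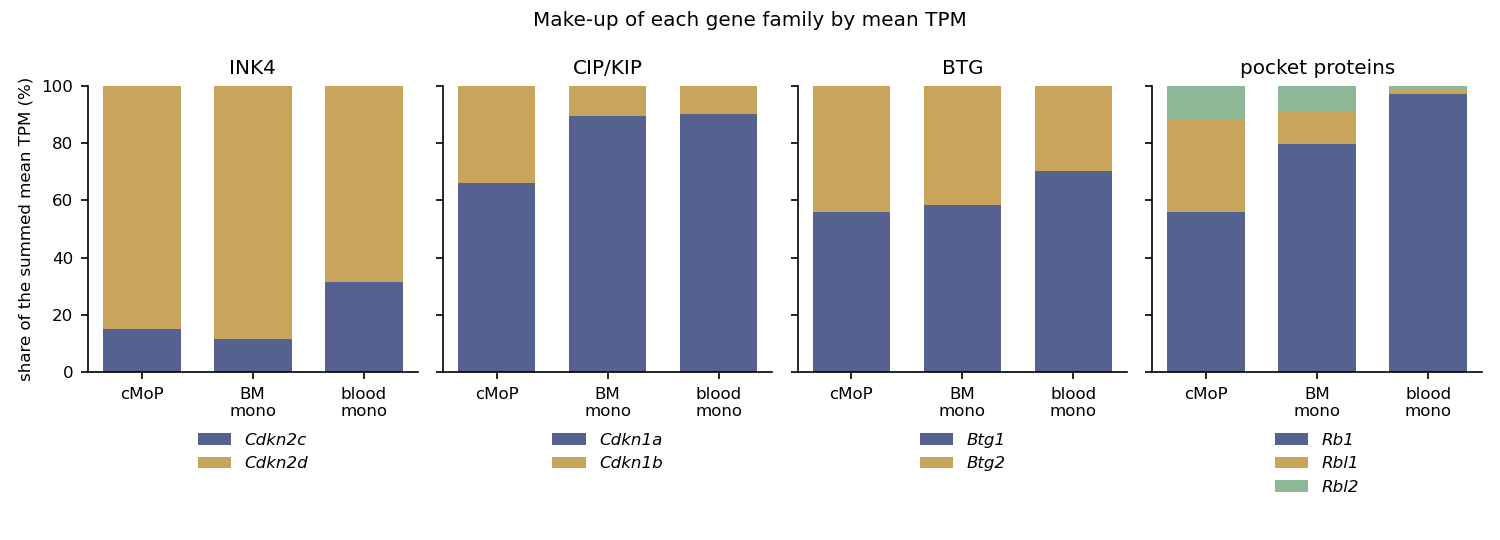
Make-up of the INK4, CIP/KIP, BTG and pocket protein genes in each group, as the percentage of the family's summed mean TPM held by each member. Rb1 takes up 97.3% of the pocket protein sum in blood monocytes and 56% in cMoP.

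Ccng2, a cyclin gene that FOXO factors are known to induce and that is linked to cell cycle arrest, was detected least often in blood monocytes. It was above 1 TPM in 33.3% of cMoP (22.2 to 46%), 31.6% of marrow monocytes (19.9 to 45.2%) and 13.2% of blood monocytes (4.41 to 28.1%). Its highest values were 483 TPM in cMoP, 470 TPM in marrow monocytes and 840 TPM in blood monocytes, with a median of 0 in each. Differences in mean log2(TPM + 1) were -0.36 for marrow monocytes against cMoP and -0.58 for blood against marrow monocytes. The first turned to 0.71 among cells with 4500 to 6000 genes without the high-mitochondrial cMoP, and mean TPM was 26.8 in marrow monocytes and 24.8 in cMoP. Mean TPM ran the other way in blood, at 54, and 3 blood cells held 99.7% of the blood sum. Of 8 measured FOXO and quiescence genes, 2 were higher and 1 lower by at least 1 in marrow monocytes than in cMoP, against 3.94% and 30.8% of all measured genes: Txnip at 2.51, Klf2 at 1.84 and Pik3ip1 at -1.53.

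Immediate early genes, to which Btg2 is often counted, were higher in monocytes. Of 14 measured genes, with Btg2 left out, 9 were higher and 0 lower by at least 1 in marrow monocytes than in cMoP, at a median of 1.29, against 3.94% and 30.8% of all measured genes and a median of -0.45, led by Atf3 at 5.06 and Fos at 3.99. Over cells, Btg2 had r = 0.50 with their mean level in cMoP (rho = 0.50, and 0.41 given the number of genes), 0.24 in marrow monocytes and 0.08 in blood monocytes. For Cdkn1a the values were 0.43, 0.40 and 0.35, and given the number of genes 0.22, 0.46 and 0.32. Its value in cMoP was 0.29 without the 2 most distant cells. All 6 cMoP with no flow cell label were above 1 TPM for Btg2 and Cdkn1a, against 27 and 11 of the other 60. Their immediate early means, from 3.76 to 6.19, all lay above the highest of the others, 3.59. The correlations in cMoP include these 6 libraries. They had a median of 9046 genes above 1 TPM against 6505. Neat1, Dusp1 and Jun were the genes most like Cdkn1a, with r of 0.37, 0.35 and 0.34. Their part in the levels of Btg2 and Cdkn1a was not tested.

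Cells held a median of 5 of the 10 genes above 1 TPM in cMoP, 6 in marrow monocytes and 5 in blood monocytes, with ranges of 1 to 10, 3 to 9 and 3 to 8. This number had r of 0.65 with the number of genes above 1 TPM over cMoP, 0.59 over marrow monocytes and 0.13 over blood monocytes. The summed TPM of the 10 genes had a median of 368 in cMoP, 2236 in marrow monocytes and 2617 in blood monocytes. Btg1 and Btg2 together held 45.8%, 73.6% and 75.2% of it in that order. Of the 45 pairs of members, 1 reached r of 0.4 in cMoP, that of Cdkn2c and Cdkn2d, and 0 did in marrow monocytes. In blood monocytes 3 did, all among genes above 1 TPM in 2 to 5 cells, and Btg1 with Rbl1 had -0.52 there, which was -0.07 without the 2 most distant cells.

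Set side by side in cells with 4500 to 6000 genes above 1 TPM, 33 marrow monocytes and 17 cMoP, 5 members were higher and 0 lower by at least 1, against 11.7% and 12.9% of all measured genes there. Btg2 differed by 7.08, Btg1 by 4.55 and Cdkn1a by 4.39, and Rb1 by 2.27, and the median of all measured genes was -0.05. Of those 17 cMoP 10 had over 15% of TPM on mitochondrial rows, and without them, with 7 cMoP, the values were 6.96, 4.91, 3.54 and 2.99. Of the other settings, 9 could alter the comparison of marrow monocytes with cMoP, and Btg1, Btg2, Cdkn1a, Cdkn1b, Rb1 and Rbl1 kept their direction in all of them, while Cdkn2c, Cdkn2d, Rbl2 and Ccng2 did not.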

How the data were processed

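The authors deposited 1 table of TPM with a column per cell, made with RSEM 1.2.19 on GRCm38 per the submitters' processing notes; the aligner, settings and gene models were not given in the sources used here. TPM sums to a fixed total (997939 to 999955 per cell) and keeps no read depth, so depth is unknown, and complexity was read from the number of genes above 1 TPM. An exact 0 can be a failed estimate. Groups came from the labels. No pair of cells had identical values, and doublets were not called. The effect size was the difference in mean log2(TPM + 1), later stage minus earlier, which understates differences of low genes. Higher or lower means by at least 1. Cells at 0 enter this mean, so a gene counted lower can have a higher mean TPM. With 1 sample per group no test was run. Exact binomial intervals (95%) cover the counting of cells only, and cells are not independent animals. Members and gene lists were chosen with earlier results of these data known. All members are named. Of each list, up to 4 measured genes with the largest difference could be named. Cell type markers were named without that limit. For likeness these were the 3 genes with the highest r among those above 1 TPM in at least 25% of cells. Promoters came from RefSeq GRCm38.p6, with windows for 9 of 10 members, and gene positions and overlaps from GENCODE on GRCm38. Alternatives were other pseudocounts (0.1 and 10), scaling, sets of cells and filters. The difference in mean log2(TPM + 1) was tried on values resampled from these cells, with known changes added to some genes. Other steps were not tested in this way. Python 3.11.15, pandas 2.3.3, numpy 2.4.6 and scipy 1.17.1 were used.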

Additional observations from a re-analysis of the deposited data

How the results depend on the processing

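No paired analysis was possible because the labels name no animal and replicate numbers were given in accession order only; leaving out replicates was not possible with 1 sample per group. The settings without the low-ribosomal blood library, without blood libraries under 10 TPM of Ly6c2, with 4500 to 6000 genes and no high-mitochondrial cMoP, and the gene counts with 4500 to 6000 genes were chosen after seeing the data. Leaving out settings that cannot alter a comparison, 280 member differences were recomputed and 21 had another sign than the reported one, of which 19 were of differences under 1; the cause was not tested. Between marrow monocytes and cMoP these were of Cdkn2c, Cdkn2d, Rbl2 and Ccng2, with highest values of 0.55, 2.62, 0.75 and 0.71. Between blood and marrow monocytes they were of Btg2 (0.04), Rb1 (-0.11) and Ccng2 (0.98). Between blood monocytes and cMoP they were of Cdkn2c (0.25), Ccng2 (1.10) and Cdkn2d, at 0.90 instead of -1.49 in cells with 4500 to 6000 genes and 1.10 in those without high-mitochondrial cMoP. Members higher by at least 1 in marrow monocytes than in cMoP numbered 5 instead of 3 by the ratio of mean TPM and in both sets of 4500 to 6000 genes. Members lower numbered 2 instead of 1 with a pseudocount of 0.1, and 0 with a pseudocount of 10, by the ratio of means and in both those sets. Between blood and marrow monocytes, members higher numbered 1 instead of 0 after median-ratio scaling and 2 in both sets, and members lower 0 instead of 2 with a pseudocount of 10. Between blood monocytes and cMoP, members lower numbered 5 instead of 3 with a pseudocount of 0.1, and 1 with 10 and in both sets. With a pseudocount of 10, genes higher numbered 302, 98 and 347 instead of 552, 274 and 600 (marrow monocytes against cMoP, blood against marrow monocytes, blood monocytes against cMoP), and genes lower 1686, 409 and 2406 instead of 4313, 1352 and 5273. With 0.1, blood against marrow monocytes gave 660 higher and 2531 lower, and blood monocytes against cMoP gave 932 higher; median-ratio scaling gave 477 higher in blood than in marrow monocytes. In cells with 4500 to 6000 genes, genes higher numbered 1635, 909 and 1656 in that order of comparisons, and genes lower 1805 and 2848 in those with cMoP. Median-ratio scaling moved the median of all genes to -0.30, -0.01 and -0.35 in the same order of comparisons, against -0.45, -0.10 and -0.58. The Cdkn1a share of CIP/KIP TPM in cMoP was 24.7% instead of 66.1% as a mean of each cell's own share.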
